A study of Homo sapiens with 2 samples.

Results

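The 319 regions described here were peaks in first introns of protein-coding genes, out of 3304 positions listed as bound by MTR4 in nuclear RNA of liver cancer cells. A listed position was taken as a member when its midpoint lay in the first intron of a gene's canonical protein-coding transcript, in no annotated exon of any transcript, and more than 1000 bases from every annotated 5′ end of a canonical protein-coding transcript. Members were 9.66% of the listed positions (95% Wilson interval 8.70 to 10.7) and 24.8% of the 1287 peaks in introns, the other 968 being in later introns. They fell in 176 host genes.

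The data came from RNA immunoprecipitation sequencing (RIP-seq), in which a protein is pulled down with the RNA it carries and that RNA is sequenced. PLC/PRF5 cells, a human hepatocellular carcinoma line, carried a plasmid for HA-tagged MTR4, and sonicated nuclear lysate was precipitated with anti-HA antibody (1 library) or with control IgG (1 library, which its title calls input). The tagged protein was supplied from a plasmid, so it was not the cells' own MTR4 that was precipitated. Only 1 list of positions was analysed here, with no read counts and no values for the IgG library, so no comparison over samples was possible and every interval covers counting error alone. The depth is unknown.

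MTR4 is the RNA helicase that feeds nuclear RNA to the exosome, the main 3′ to 5′ RNA-degrading complex of the nucleus, as part of the TRAMP, NEXT and PAXT assemblies. The first intron of a gene is often its longest, and RNA made from its beginning can end early, sometimes with a poly(A) tail added inside the intron, and is then a known substrate of the exosome. The study asked whether MTR4 meets pre-mRNA at introns and how that relates to splicing of metabolic genes, among them PKM, whose spliced forms are pyruvate kinase M1 and M2. It reported that MTR4 interacts with PTBP1, a splicing regulator that binds pyrimidine-rich RNA, and concluded that MTR4 acts on splicing by recruiting PTBP1.

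All 319 members carried the same score of 60 and the same width of 400 bases, so no member could be ranked above another. The listed strand was plus for every position and held no information. Each position was therefore read on the strand of its host gene, which was plus for 159 members and minus for 160.

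The sequences below are from the GRCh37 (hg19) genome, 5′ to 3′ on the strand of the host gene, and are the DNA form of the RNA. The first 3 show the middle 300 bases of the PKM member, the member nearest to its gene start (SUN2, a protein of the inner nuclear membrane) and the first-listed member of the gene with the most members (TAFA5, a secreted chemokine-like protein). They were chr15:72514742-72515041 on the minus strand, chr22:39150852-39151151 on the minus strand and chr22:48886552-48886851 on the plus strand. Capitals mark the CCA motif, read on the strand of the gene as the letters CCA, then any base but A, then C, after a motif that the study described.
PKM: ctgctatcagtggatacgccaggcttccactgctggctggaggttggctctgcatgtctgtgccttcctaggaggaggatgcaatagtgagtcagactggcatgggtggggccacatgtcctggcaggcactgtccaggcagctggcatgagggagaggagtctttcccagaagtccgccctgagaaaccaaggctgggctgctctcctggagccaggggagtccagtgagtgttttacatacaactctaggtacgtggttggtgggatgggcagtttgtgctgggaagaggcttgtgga
SUN2: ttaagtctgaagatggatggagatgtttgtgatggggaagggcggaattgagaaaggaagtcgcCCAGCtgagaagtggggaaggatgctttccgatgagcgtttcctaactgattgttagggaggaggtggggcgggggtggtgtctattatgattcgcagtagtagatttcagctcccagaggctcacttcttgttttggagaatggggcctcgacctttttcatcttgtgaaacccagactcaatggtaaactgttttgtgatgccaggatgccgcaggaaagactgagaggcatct
TAFA5: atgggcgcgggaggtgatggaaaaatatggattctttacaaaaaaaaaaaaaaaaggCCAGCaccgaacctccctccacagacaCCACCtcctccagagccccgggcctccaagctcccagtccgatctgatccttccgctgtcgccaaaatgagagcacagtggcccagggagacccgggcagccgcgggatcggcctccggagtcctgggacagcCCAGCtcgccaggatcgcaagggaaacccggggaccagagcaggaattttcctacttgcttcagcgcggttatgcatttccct

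Under this reading the PKM stretch held no match, and neither did its whole 400 bases. Under the other reading, the letters CCAG, then any base but A, then C, which the study's notation also allows, it held 2. SUN2 had 1 match in the stretch shown and TAFA5 had 3. PKM had 3 other listed positions, 2 of them in later introns, whose letters are not shown. The study's splicing assays of PKM used introns farther down the gene. The absence of a match here therefore describes the first-intron position only.

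Another 2 stretches of 120 bases show members with the poly(A)-like motif, a fixed-length A-rich motif in which the study's notation allows some other bases, with the matched letters in capitals. They lay at chr15:67399437-67399556 on the plus strand (SMAD3, which carries TGF-β signals to the nucleus) and chr22:41503372-41503491 on the plus strand (EP300, a histone acetyltransferase).
SMAD3: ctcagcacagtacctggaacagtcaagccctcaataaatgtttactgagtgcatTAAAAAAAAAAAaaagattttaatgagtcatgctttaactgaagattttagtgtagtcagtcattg
EP300: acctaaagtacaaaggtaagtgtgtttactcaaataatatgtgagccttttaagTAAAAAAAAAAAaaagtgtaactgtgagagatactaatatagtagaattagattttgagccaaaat

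In the SMAD3 stretch the letters AATAAA, the core of a polyadenylation signal, stood upstream of the A-rich run. The EP300 stretch held GGTAAG, the letters of a 5′ splice site, also upstream of the run. These were matches of letters, not mapped sites of processing.

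A further 3 stretches of 120 bases show members with long unbroken runs of C and T, in capitals, since such runs are of the kind that PTBP1 binds. They lay at chr22:30020771-30020890 on the plus strand (NF2), chr15:50958612-50958731 on the minus strand (TRPM7, an ion channel with a kinase domain) and chr10:6247282-6247401 on the plus strand (PFKFB3, which makes the glycolysis activator fructose 2,6-bisphosphate).
NF2: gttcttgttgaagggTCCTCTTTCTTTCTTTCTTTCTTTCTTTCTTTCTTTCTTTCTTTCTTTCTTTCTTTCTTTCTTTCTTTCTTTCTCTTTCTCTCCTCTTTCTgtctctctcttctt
TRPM7: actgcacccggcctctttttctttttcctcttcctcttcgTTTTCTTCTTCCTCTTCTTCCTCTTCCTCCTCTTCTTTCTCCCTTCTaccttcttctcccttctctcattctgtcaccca
PFKFB3: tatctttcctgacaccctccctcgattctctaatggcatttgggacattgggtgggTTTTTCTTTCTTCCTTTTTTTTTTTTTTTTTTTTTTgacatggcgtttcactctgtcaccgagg

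The runs were 91, 47 and 36 bases long. The NF2 run was largely a repeat of TTTC, and that of PFKFB3 ended in a long stretch of T alone. Whether these runs lie in annotated repeats was not looked up, and binding of PTBP1 to them was not measured. Except for PFKFB3, a glycolysis gene, these genes were named after their values were seen.

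Members were found on few chromosomes. Chromosome 3 held 105 members among 1277 listed positions (8.22%, interval 6.84 to 9.86), chromosome 10 held 62 of 516 (12.02%, interval 9.49 to 15.1), chromosome 15 held 88 of 818 (10.8%, interval 8.82 to 13.1) and chromosome 22 held 63 of 567 (11.1%, interval 8.78 to 14.0). The last member was on chromosome 2, which had 2 listed positions. Chromosomes 7 and 20, with 37 and 77 listed positions, had no member, which allows a share of up to 8.11% and 3.90% if a count of 0 is taken to allow 3 (the Wilson upper limits were 9.41% and 4.75%). The listed positions were almost all on these 6 chromosomes (3, 7, 10, 15, 20 and 22), so no statement about first introns elsewhere in the genome could be made.

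Bases of a first intron where the midpoint of a member could have fallen under the rule are called eligible here. Of the 3335 protein-coding genes on these 6 chromosomes with eligible bases in the first intron, 178 had at least 1 peak there, which is 5.34% of them. All 178 were on chromosomes 3, 10, 15 and 22, where they were 8.08% of 2204 genes. This count is over introns that contain a member, so a member inside the first introns of overlapping genes counted for each (3 members had 2 host genes), whereas the 176 host genes assign each member to its longest gene. The share grew with the eligible length of the intron. Over the 6 chromosomes, below 5 kb 1.27% of first introns had a peak (interval 0.83 to 1.96), from 5 to 20 kb 5.50% (4.24 to 7.11), from 20 to 50 kb 10.4% (7.99 to 13.4), from 50 to 100 kb 16.4% (11.7 to 22.5) and at 100 kb or more 20.9% (14.4 to 29.2). Over the 4 chromosomes with these introns it went from 1.99% (1.29 to 3.05) to 29.3% (20.5 to 39.9). Host genes accordingly had long first introns, with a median of 26709 bases against 6891 bases over all genes with an eligible first intron. The extremes among hosts were CADM2, a neuronal adhesion protein, at 766852 bases, MAGI1, a scaffold protein of cell junctions, at 415907 and CMSS1 at 328929, and at the short end HHEX, a homeobox factor of liver development, at 2020 bases and RAD54L2 at 2673.

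**Figure D1:**
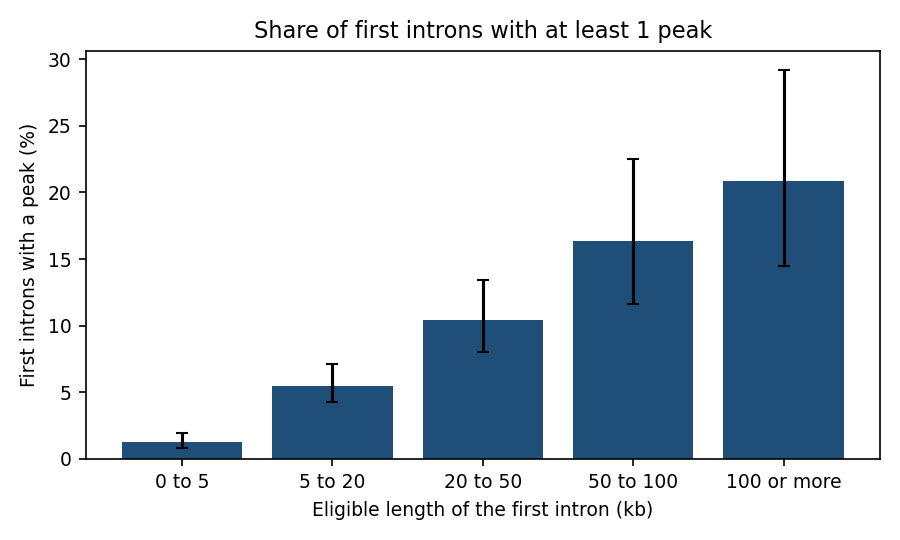
Share of first introns with at least 1 peak (vertical axis, percent) by eligible length of the intron (horizontal axis, kb), over 3335 genes on 6 chromosomes, with 95% Wilson intervals as error bars. The share climbs from 1.27% in the shortest class to 20.9% in the longest; without chromosomes 7 and 20, which have no such peak, it would reach 29.3%.

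Peaks per base did not climb with length. On chromosomes 3, 10, 15 and 22 first introns with under 5 kb of eligible sequence held 12.1 peaks per Mb (22 peaks, exact Poisson interval 7.61 to 18.4) and those with 100 kb or more held 4.94 (73 peaks, interval 3.87 to 6.21). The classes between them lay at 9.11, 7.94 and 9.70 peaks per Mb, with intervals that overlapped each other.

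The members were spread unevenly over the 176 genes. Most host genes, 124, had 1 member, 28 had 2 and 9 had 3. The 10 genes with 5 or more held 92 members (28.8%). TAFA5 had 15, spread from 1337 to 116337 bases from the gene start in an intron of 156892 bases. FNDC3B, a membrane protein with fibronectin type III domains, had 13, from 4134 to 62234 bases in an intron of 72680 bases. MAGI1 had 11 over a far longer stretch, 55591 to 302491 bases from the start. MYO1E, an unconventional myosin, also had 11, between 12153 and 75258 bases.

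SMAD3 had 9 members, the nearest at 1032 bases and the other 8 between 24132 and 61932 bases. NCEH1, a hydrolase of cholesterol esters, had 8, all between 8555 and 34255 bases. CMTM8, a membrane protein of the chemokine-like MARVEL family, had 7, between 8830 and 116030 bases. ITGB1, the integrin β1 chain, had 5 in a short stretch of 6356 to 15956 bases. ONECUT1, the liver transcription factor also known as HNF6, had 5 between 3666 and 31176 bases.

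**Figure D2:**
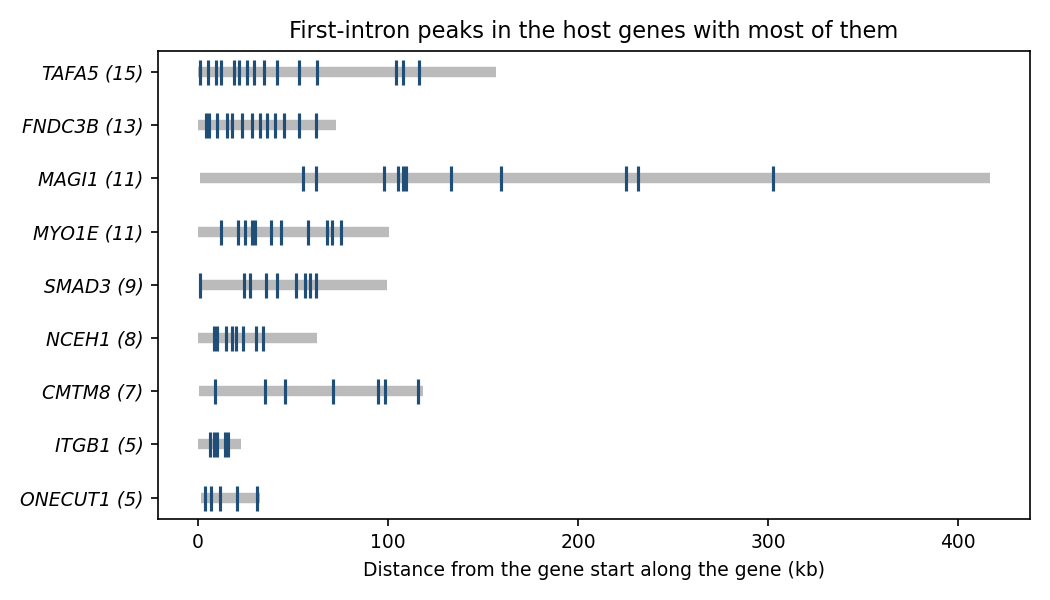
Members (dark ticks) along the first intron (grey bar) of 9 host genes with 5 or more members, by distance from the gene start in kb on the horizontal axis; the number of members follows each name. TAFA5 holds 15 members and ITGB1 and ONECUT1 hold 5 each, and in NCEH1 the members end at 34255 bases while the intron goes on to more than 60 kb.

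Within a gene, neighbouring members lay a few kb apart. Over the 143 steps between neighbours in the same intron the median was 6300 bases (quartiles 3500 and 11985, range 1300 to 71100), and 95 steps were of 10000 bases or less. The median step was 3500 bases in NCEH1, 4600 in FNDC3B, 4830 in MYO1E, 4850 in TAFA5 and 2100 in ITGB1. It was 15200 in MAGI1 and 20750 in CMTM8. Peaks of 1 gene come from RNA of that gene and are not independent of each other.

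Many host genes also had peaks elsewhere. Of the 176, 133 (75.6%) had another listed position within the gene, 82 (46.6%) in a later intron, 62 (35.2%) in a coding exon, 47 (26.7%) in an untranslated region and 22 (12.5%) within 1000 bases of a 5′ end. FNDC3B had 41 such positions beside its 13 members. In 43 genes (24.4%) the first intron held all the listed positions of the gene, and 7 of these had more than 1 member. NCEH1, with 8 members and no other position, was the extreme case. BMPR1A, a receptor for bone morphogenetic proteins, had 3 members and no other position. None of these shares was set beside that over other genes, so they describe the host genes only.

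Along the gene, members lay at a median of 15215 bases from the gene start (quartiles 6222 and 36864), against 60215 bases for peaks in later introns, which lie farther down the gene by construction. Taking only the member nearest to the start in each gene, a choice that favours short distances, the median was 8072 bases. Within 10000 bases of the start were 125 members (39.2%), and 18 were beyond 100 kb. The nearest were in SUN2 at 1001 bases, CTNNB1 (β-catenin, the effector of Wnt signalling) at 1006 and SMAD3 at 1032. On the other side of the limit of 1000 bases, positions in the first introns of ELP6 at 1000 bases, LPP at 857 and CMTM8 at 830 were not members. The farthest member was that of CADM2 at 545262 bases, followed by those of MAGI1 at 302491 and 231391.

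Members were more often in the early part of the intron than in the late part. Counting eligible bases from the 5′ end, 206 of 319 members (64.6%, interval 59.2 to 69.6) lay in the first 50% of the bases of their intron. In steps of 10% of the way along, the step from 20 to 30% held the most members, 58, and the steps from 80 to 100% held 14 and 21. Chromosome by chromosome the share ran from 61.4% (chromosome 15) to 67.6% (chromosome 3). Among the 124 genes with a lone member it was 58.1%, with an interval of 49.3 to 66.4 that includes 50%. The difference between these genes and those with several members was not tested.

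**Figure D3:**
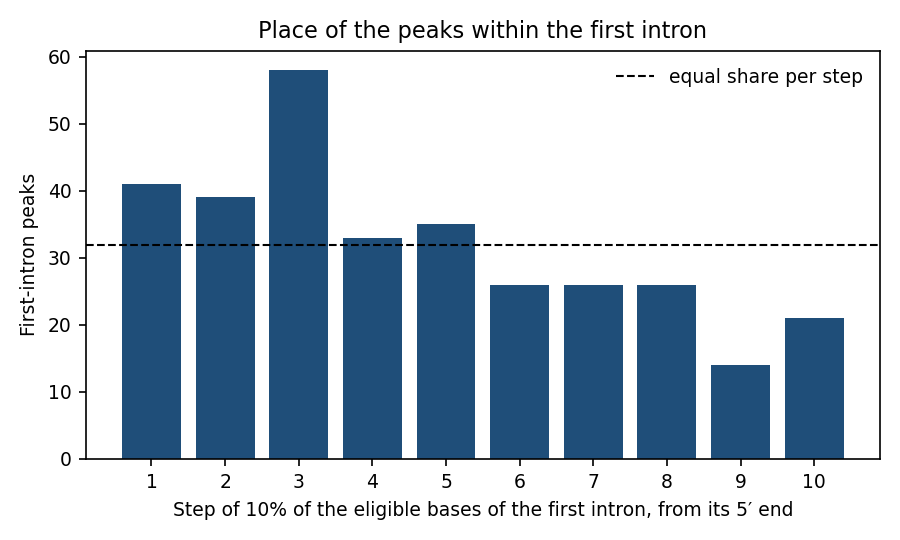
Number of members (vertical axis) in each step of 10% of the eligible bases of their first intron, from the 5′ end (horizontal axis); the dashed line is the count that equal steps would hold. The bar for 20 to 30% reaches 58 and those for 80 to 100% reach 14 and 21.

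The density of members per base was compared with that of peaks in later introns. Over the 6 chromosomes first introns held 318 peaks in 62.4 Mb of eligible sequence, 5.10 per Mb (interval 4.55 to 5.69), and later introns held 966 in 203.4 Mb, 4.75 per Mb (4.45 to 5.06). The ratio was 1.07 (exact conditional interval 0.94 to 1.22), so the densities did not differ beyond counting error. The ratio was not alike on all chromosomes, since chromosome 3 gave 0.83 (0.66 to 1.03) and chromosome 10 gave 1.55 (1.14 to 2.10), with 1.09 for chromosome 15 and 1.10 for chromosome 22.

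Distance to exons separated these classes. Of the members, 26 (8.15%, interval 5.62 to 11.7) had their midpoint within 200 bases of an annotated exon, which means that the 400-base position touched it. Of peaks in later introns 327 of 968 (33.8%, interval 30.9 to 36.8) did. Later introns are shorter and have more of their bases near exons, so densities were taken by distance to the nearest exon on chromosomes 3, 10, 15 and 22. Within 200 bases first introns held 20.1 peaks per Mb (13.1 to 29.4) and later introns 30.0 (26.8 to 33.4). From 200 bases to 1 kb the values were 9.84 (7.15 to 13.2) in first introns and 7.26 (6.30 to 8.33) in later ones, with intervals that overlapped. From 1 to 5 kb first introns were higher, with 8.02 (6.59 to 9.67) in first introns and 5.41 (4.77 to 6.12) in later ones. From 5 to 20 kb first introns held 6.18 (4.96 to 7.60) and later introns 3.51 (2.92 to 4.18), and at 20 kb or more 6.15 (4.55 to 8.13) and 3.52 (2.65 to 4.59).

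**Figure D4:**
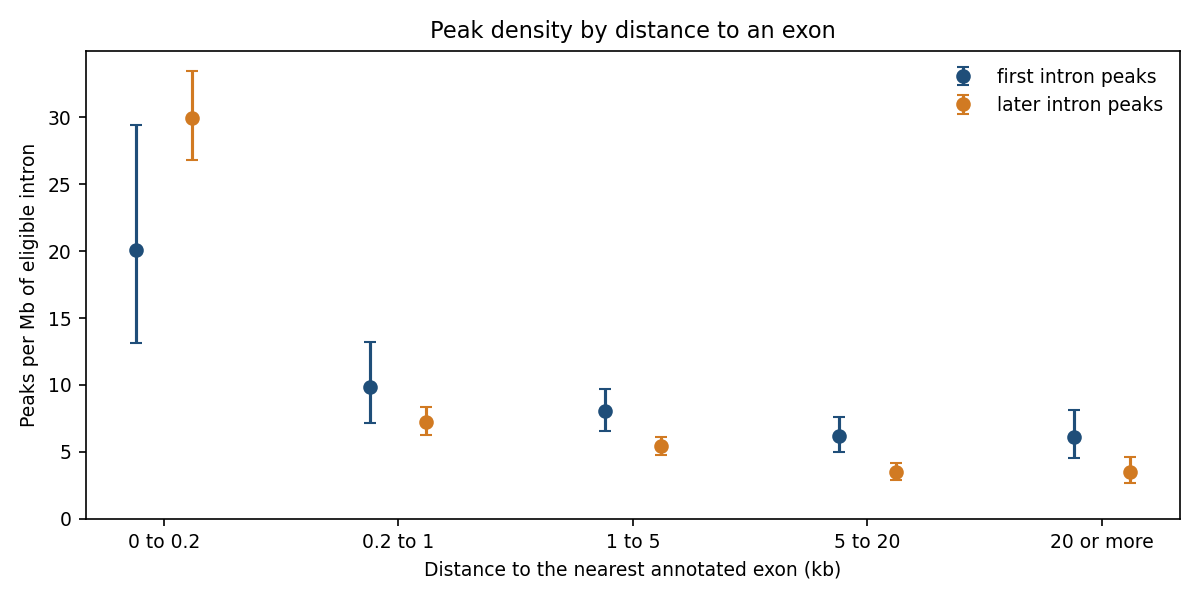
Peaks per Mb of eligible intron (vertical axis) by distance to the nearest annotated exon in kb (horizontal axis), for first introns (blue) and later introns (orange) on chromosomes 3, 10, 15 and 22, with exact Poisson 95% intervals. Later introns lie higher next to exons, at 30.0 against 20.1, and first introns have the higher value in each class from 200 bases outwards, with overlapping intervals below 1 kb and at 20 kb or more, for example at 6.18 against 3.51 from 5 to 20 kb.

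Beyond 1000 bases from any exon there were 248 members in 36.1 Mb, 6.87 per Mb (6.04 to 7.78), and 435 peaks in 98.4 Mb of later introns, 4.42 per Mb (4.01 to 4.86). The ratio was 1.56 (1.33 to 1.82). Counting each gene once in each class, with 133 and 215 genes over the same bases, it was 1.69 (1.35 to 2.10). This lowered the later-intron count more (435 to 215) than that of members (248 to 133). The value is therefore no check on clustering of peaks within genes. Taken alone, chromosome 10 gave 1.74 (1.20 to 2.50), chromosome 15 gave 1.56 (1.14 to 2.13) and chromosome 22 gave 1.98 (1.31 to 2.998), whereas chromosome 3 gave 1.18 (0.90 to 1.54), an interval that includes 1. Near the gene start, within 50 kb, it was 1.68 (1.32 to 2.15), and at 50 kb or more it was 1.06 (0.79 to 1.41). This comparison away from exons was added after the densities had been seen.

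With bases near exons included, the density of members fell with distance from the gene start, from 8.61 per Mb at 1 to 2 kb (24 members, interval 5.52 to 12.8) to 2.28 at 100 to 200 kb (14 members, 1.25 to 3.83) and 0.83 at 200 kb or more (4 members, 0.23 to 2.12). Later introns showed a fall as well, from 12.2 per Mb at 2 to 5 kb to 2.46 at 200 kb or more. In each of the 8 distance classes the later introns had the higher value. The interval of the ratio lay below 1 at 2 to 5 kb (0.34 to 0.85), 10 to 20 kb (0.48 to 0.96), 100 to 200 kb (0.26 to 0.82) and 200 kb or more (0.09 to 0.88), and included 1 in the other 4 classes.

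**Figure D5:**
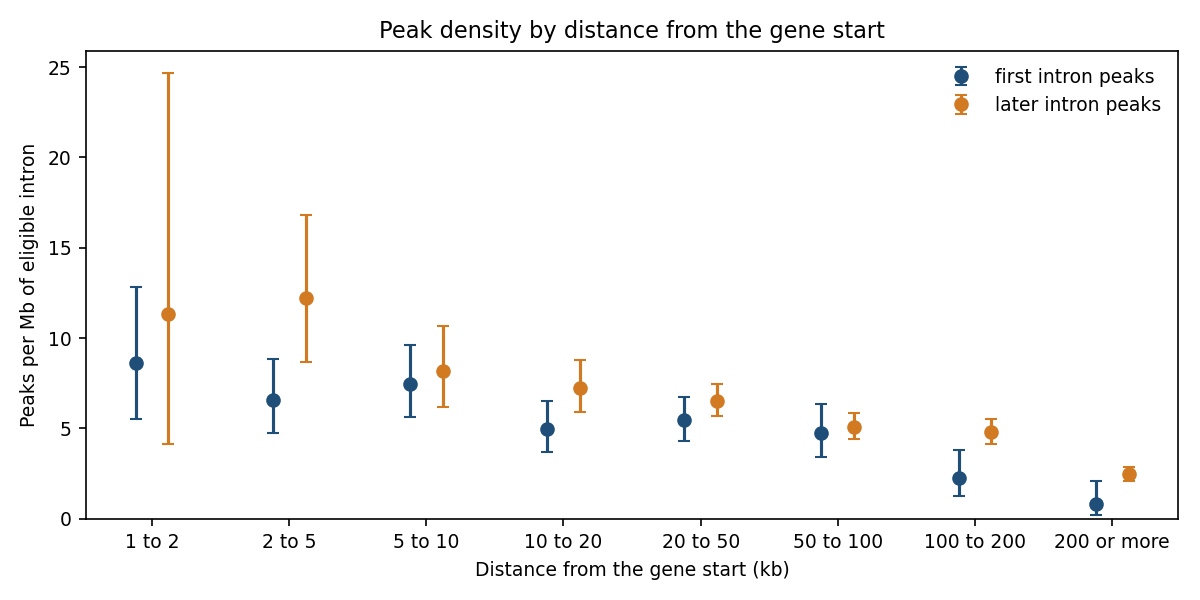
Peaks per Mb of eligible intron (vertical axis) by distance from the gene start in kb (horizontal axis), for first introns (blue) and later introns (orange) on 6 chromosomes, with exact Poisson 95% intervals. First introns fall from 8.61 to 0.83 and later introns lie above them in each class.

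The host genes were read against 8 lists of genes. Of 25 genes of TGF-β, Wnt and receptor kinase signalling with an eligible first intron on the 6 chromosomes, 5 had a peak there, and all 5 were among the 18 with at least 10000 eligible bases, a class in which 129 of all 1265 genes (10.2%) had one. The 5 were BMPR1A, CTNNB1, MAP2K1, PIK3CB and SMAD3. Within that class the median eligible length was still 44031 bases on this list against 25265 over all genes. MAP2K1, the kinase MEK1, had 1 member at 11502 bases from the start. PIK3CB, a catalytic subunit of phosphoinositide 3-kinase, had 2 at 11768 and 26168 bases.

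Of 19 genes of lipid metabolism and nuclear receptors, 5 had a first-intron peak, namely LIPC, PLD1, SCAP, SREBF2 and THRB. All 5 were among the 12 with at least 10000 eligible bases, beside 10.2% of all genes in that class, and the median eligible length was 19760 bases on this list against 5762 over all genes. SREBF2, the transcription factor that drives cholesterol synthesis, had 4 members, from 2493 to 23793 bases, and SCAP, the protein that escorts it through the secretory pathway, had 1 at 3929 bases. LIPC, hepatic lipase, had 1 at 8402 bases and was the only gene of the 13 on the list of liver secreted proteins with one. PLD1, a phospholipase, had 1 at 9271 bases and THRB, a thyroid hormone receptor, had 1 at 57339 bases.

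Of 27 cell cycle genes 4 had a member, BUB1B, EP300, SMAD3 and YWHAH, beside 5.34% of all genes. In the class of at least 10000 eligible bases it was 3 of 9, beside 10.2%. BUB1B, a mitotic checkpoint kinase, held its member 2392 bases from the start in an intron of 3797 bases. EP300 had 2, at 14806 and 22206 bases.

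Of 9 glycolysis genes PFKFB3 and PKM had 1 member each, beside 5.34% of all genes with a first-intron peak. Among those with at least 10000 eligible bases it was 1 of 4, beside 10.2%. That of PFKFB3 was 2307 bases from the start, in an intron of 10286 bases, and it was the member with the run of 36 pyrimidines printed above. That of PKM was 8639 bases from the start in an intron of 12005 bases, and its midpoint was 20 bases from an annotated exon of another transcript, so this position overlapped exon sequence and could not be told apart from exon signal. Of the 16 genes on the list of splicing factors RBFOX2, a splicing regulator, was alone in having a peak, at 10670 bases. That list does not hold every gene of splicing, and host genes outside it were not counted.

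Of 33 genes of neuronal adhesion and guidance, which had long eligible first introns with a median of 45878 bases, CADM2 and NEO1 had 1 member each. Their 6.06% of genes stood beside 5.34% of all genes, with 6.25% on the splicing list and 7.69% on the list of liver secreted proteins. Among those with at least 10000 eligible bases it was 2 of 24 on the neuronal list (8.33%), beside 10.2% of all genes. On the splicing list it was 1 of 6 and on the liver list 1 of 2. Of the 3 nuclear exosome genes with an eligible first intron none had a peak, too few genes for a share. The lists are small, were not matched further for intron length within the class of at least 10000 eligible bases, and their counts describe these genes only.

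The letters in the members were compared with those in the 968 peaks of later introns for 8 features, by two-sided Fisher's exact tests with Benjamini-Hochberg adjustment over the 8. None passed, with an adjusted p of 0.887 for each. In this comparison of all peaks the lowest unadjusted p was 0.450, and no feature had an unadjusted p under 0.05. Matches to the CCA motif were found in 71.8% of members (229 of 319) and 71.3% of later-intron peaks, a difference of 0.51 percentage points with an interval of -5.36 to 6.01. It was also in 70.4% of 105168 windows of 400 bases tiled over the first introns of chromosomes 3, 10, 15 and 22. Most stretches of this length thus hold it under this reading. The other reading, which starts with CCAG, was in 43.6% of members and 46.0% of later-intron peaks. Its share in windows is not given here.

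The poly(A)-like motif was in 8 members (2.51%, interval 1.28 to 4.87), against 3.10% of later-intron peaks, a difference of -0.59 points (-2.38 to 1.94), and 4.78% of windows. The 8 were in MYO1E, SMAD3, ASCC2, EP300, SREBF2, PACSIN2, ALG1L2 and YEATS2, and 7 of them also held the CCA motif. A run of 8 A was in 11.3% of members, 9.71% of later-intron peaks and 10.4% of windows. AATAAA was in 21.3% of members, 19.7% of later-intron peaks and 25.1% of windows, and GGTAAG in 7.84%, 8.37% and 5.47%.

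A run of 12 pyrimidines was in 34.5% of members, 33.3% of later-intron peaks and 32.7% of windows, with a difference between the peak classes of 1.22 points (-4.63 to 7.32). The letters TGTAATCCC or their reverse complement, which are common in Alu repeats, were in 8.15% of members (interval 5.62 to 11.7) and 9.30% of later-intron peaks, and in 13.4% of windows. Windows were above the interval of the members on chromosomes 3 (11.1% against 4.76%) and 22 (21.0% against 7.94%), and within it on chromosomes 10 and 15. How repeats were treated when reads were mapped can move such a share, and its part was not tested.

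GC content was 50% or more in 22.3% of members (interval 18.0 to 27.1), 24.5% of later-intron peaks and 16.3% of windows. Chromosome 22 held 63 of the 319 members but 9972 of the 105168 windows, so shares taken over all chromosomes also differ by this mix. Within a chromosome, windows lay below the interval of the members on chromosome 22 only. There 55.6% of members (35 of 63, interval 43.3 to 67.2) and 38.6% of windows had this GC content, and TAFA5 alone gave 15 of the 35. On chromosomes 3, 10 and 15 the windows, at 9.96%, 19.0% and 16.8%, lay within the intervals of the members. The median GC content of members was 43.3%, against 42.9% in later-intron peaks and 41.5% in windows. The difference in chromosome mix applies to the medians of members and windows too. Against all other listed positions in coding genes, exons included, where the share was 34.6%, the share in members was lower (Fisher's exact p = 7.21e-06, adjusted p = 5.77e-05). On chromosome 3, 8.57% of members had this GC content and later-intron peaks had 19.0% (unadjusted Fisher's exact p = 0.0122, adjusted p = 0.0980 over the 8 features). With 1 peak per gene and class the shares were 21.6% of members and 29.7% of later-intron peaks (unadjusted Fisher's exact p = 0.0406, adjusted p = 0.325). The 15 TAFA5 members, at the end of chromosome 22, all had a GC content above 50%, from 50.5% to 64.5%, while all 13 FNDC3B members were below 50%, from 28.5% to 48%.

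Other annotated RNA overlapped few members. Genes of long noncoding RNA on the opposite strand covered 6 members (1.88%) and 4.60% of windows, and 11 members lay within a long noncoding RNA gene on the same strand, from which their reads could not be told apart. A small RNA gene was within 1000 bases of 2 members, 1 in MAGI1 and 1 in NCEH1. In addition, 11 members also lay in a later intron of another protein-coding gene.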

How the data were processed

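RNA from 1 anti-HA and 1 IgG precipitation of PLC/PRF5 nuclear lysate was sequenced. The authors trimmed adapters, aligned reads to hg19 with TopHat2 version 2.0.13 and called peaks with RIPSeeker. The deposited list gives each position and a score per position, whose meaning is not given in the sources used here; it was 60 for all members and was not used otherwise. Whether the IgG library served as background for the calls is not given in those sources either.

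Midpoints were placed on GENCODE release 44 mapped to GRCh37, the build of hg19. Shares have Wilson intervals and densities exact Poisson intervals at 95%, for counting error only. Ratios have exact intervals given the total count, and features were compared by two-sided Fisher's exact tests (scipy 1.17.1). The scripts were tested on simulated data. Alternatives gave 84 planned and 12 added values.

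The members and lists were chosen with earlier results of these data known. Named genes were the 10 with most members, list genes, the extremes in distance and intron length, positions at the limit of 1000 bases, members with the poly(A)-like motif, and PKM; some of these genes and sequences are not reported here. The density by distance to exons and by intron length was added after the data were seen.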

Additional observations from a re-analysis of the deposited data

How the results depend on the processing

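Of 96 values recomputed under alternatives, 64 kept their direction and their side of the test or, where no test was run, stayed near the value reported (within its interval, for distances within its quartiles, and for counts within 1.5 times). Among these was the median distance from the gene start, 8072 bases with 1 member per gene against 15215. With the first intron of every protein-coding transcript there were 489 members. The share in the 5′ part of the intron was 58.1% in genes with 1 member. The ratio of first-intron to later-intron density was 0.83 on chromosome 3 alone, 1.25 without it, 0.84 within 50000 bases of the gene start and 1.71 in introns with at least 10000 eligible bases. Its direction thus depends on which introns and chromosomes are compared. More than 1000 bases from an exon the ratio was 1.18 on chromosome 3, 1.98 on chromosome 22 and 1.84 without chromosome 3. At 50000 bases or more from the gene start it was 1.06. These values were above 1, but the intervals on chromosome 3 (0.90 to 1.54) and at 50000 bases or more (0.79 to 1.41) included 1. The density was 14.4 per Mb in genes with a listed position and 7.60 on chromosomes 3, 10, 15 and 22. The share of first introns with a peak was 10.2% with at least 10000 eligible bases, 6.57% on chromosome 3, 8.08% on chromosomes 3, 10, 15 and 22, and 1.56% for at least 2 peaks.

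Differences in sequence features between first and later introns changed sign in several settings. With 1 peak per gene the Alu letters were in 10.8% of members. On chromosome 3 the run of 8 A was in 8.57% and GGTAAG in 9.52%. Without chromosome 3 the values were 74.3% for the CCA motif, 29.0% for GC content, 17.8% for AATAAA and 33.6% for pyrimidine runs. Against all other listed positions in coding genes the sign changed for the CCA motif (71.8%) and the Alu letters (8.15%). GC content (22.3%) passed the test there, but that set includes the exon positions that the rule kept out of the members. On either strand the poly(A)-like motif was in 8.78%, the run of 8 A in 21.6% and GGTAAG in 15.05%. The other reading of the CCA motif gave 43.6%, and a GC limit of 40% gave 64.3%. The glycolysis list had 1 gene with a peak among those with at least 10000 eligible bases. The causes were not tested.

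No paired analysis was possible because there is 1 list from 1 library. With no counts, depth and the spread between replicates are unknown, and no RNA abundance or IgG signal was set beside a peak.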
